A study of Mus musculus with 7 samples.

Results

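SPARC family proteins, periostin, tenascins and fibronectin are encoded by 9 genes that were followed in the mouse femur after traumatic brain injury (TBI). The genes were taken by name: Sparc, Sparcl1, Smoc1, Smoc2, Postn, Tnc, Tnn, Tnxb and Fn1. They were 9 of the 49671 genes in the count table, and all 9 passed the filter on low counts. All mice were wild type per the labels, and no strain, sex or age was used here. The 4 libraries of the TBI group came from femurs taken 3 days after a controlled cortical impact, a blow to the brain surface that leaves the femur untouched. The 3 control libraries came from uninjured mice, for which the labels name no sham operation, so anaesthesia and surgery cannot be told apart from the brain injury. Each femur was crushed whole, so bone, marrow, cartilage, periosteum and any attached muscle entered the same RNA. The labels do not say that each library came from a separate mouse, and p-values measure the spread between libraries.

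Matricellular proteins are secreted into the extracellular matrix but are not its load-bearing fibres. They bind collagens, growth factors and cell-surface receptors and so alter how cells attach, migrate and mineralise. Osteonectin, the product of Sparc, is an abundant non-collagenous protein of bone that binds collagen and calcium. Periostin is made by the fibrous sheath of bone, by tendon and by ligament, and tenascins are made where connective tissue is loaded or remodelled.

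Total counts ranged from 15461528 to 21783534 per library, and 22360 to 23424 genes had at least 1 count. A single count was worth 0.0426 to 0.0630 CPM (counts scaled to a common library size, with TMM factors that allow for RNA composition). The markers of several tissues differed in amount between libraries of the same group. The summed level of 16 skeletal muscle genes ran from 21250 to 70990 CPM in the controls and from 25350 to 130100 CPM after TBI, with TBI 3 and TBI 4 the highest. The summed level of 18 osteoblast genes ran from 16610 to 28710 CPM in the controls and from 11060 to 15330 CPM after TBI. The osteoblast list held Runx2, Sp7, Alpl and Bglap, and no gene of either list was at 0 counts in any library, so bone-forming cells were represented in each femur.

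Of the 9 genes, 8 had a lower estimated level after TBI and only Sparcl1 had a higher one. The estimates ran from −0.93 on the log2 scale for Postn to 0.14 for Sparcl1, with a median of −0.58. Over all 17144 genes tested the median was 0.0263, and 45.6% of genes had a lower estimate. For Sparc, Postn, Tnn and Fn1 all 4 TBI values were under the lowest control, a separation that 5.38% of all genes showed in this direction. No gene passed edgeR's quasi-likelihood test at an adjusted p under 0.05, which makes the background 0% of 17144 genes. At an unadjusted p under 0.05, 6 of the 9 were lower (Sparc, Smoc2, Postn, Tnc, Tnn and Fn1), against 4.97% of all genes, and 1259 genes of either direction passed that level. DESeq2, the other count model, called Sparc and Postn lower, with 0.7% of the 13281 genes given an adjusted p called lower. In RNA from a whole organ, fewer cells of a type and less RNA per cell cannot be told apart.

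**Figure D1:**
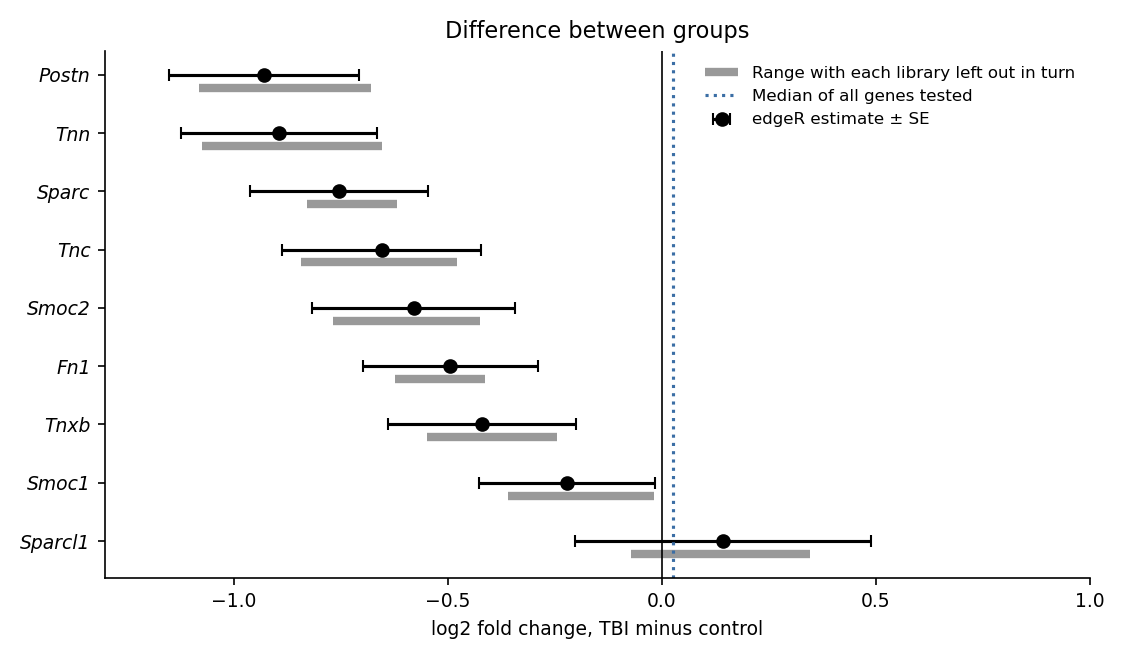
Log2 fold change of each gene, TBI minus control, as the edgeR estimate ± SE (points), with the range over fits that leave out 1 library each (grey bars) and the median of all genes tested (dotted line). Postn (−0.93) and Tnn (−0.89) lie farthest to the left, and Sparcl1 (0.14) is the only point right of 0.

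Sparc (ENSMUSG00000018593) lies on the minus strand of chromosome 11, from 55394500 to 55423183 in GRCm38. Its level was 4577, 5790 and 4393 CPM in controls 1 to 3, and 3037, 3158, 2939 and 2545 CPM in TBI 1 to 4. The lowest control thus stood well above the highest TBI library, and the TBI libraries varied less around their mean (coefficient of variation 9.10%) than the controls (15.4%). The mean was 4920 ± 759 CPM in the controls (SD, n = 3) and 2920 ± 266 CPM after TBI (SD, n = 4), which is 1.69-fold lower. On the log2 scale the difference was −0.75 ± 0.21 (SE), with an adjusted p = 0.484 in edgeR and an adjusted p = 0.00412 in DESeq2. The level of Sparc was so high that only 0.111% of the genes tested had a higher mean.

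Sparcl1 (ENSMUSG00000029309; chromosome 5, 104079111 to 104113733, minus strand) encodes hevin, a SPARC-like protein known from vessels and muscle and from synapse formation in the brain. Its level was 94.2, 146 and 175 CPM in the controls and 80.6, 120, 205 and 206 CPM in TBI 1 to 4. The groups overlapped, with TBI 1 the lowest and TBI 3 and TBI 4 the highest of the 7 libraries. The means were 138 ± 40.9 CPM (SD, n = 3) and 153 ± 62.6 CPM (SD, n = 4), and the log2 difference was 0.14 ± 0.35 (SE; edgeR adjusted p = 0.924). The sign of this estimate depended on which libraries were used: leaving out control 1 gave −0.0712, leaving out TBI 3 gave −0.0292 and leaving out TBI 4 gave −0.0340. Dropping both TBI 3 and TBI 4, an alternative chosen after seeing the data, gave −0.49 ± 0.28 (SE). TBI 3 and TBI 4 were also the libraries with the most muscle RNA, and with the muscle level as a covariate the Sparcl1 estimate was −0.24 ± 0.10 (edgeR adjusted p = 0.258). The part of muscle in the Sparcl1 level was not tested beyond that fit.

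Smoc1 and Smoc2 encode secreted modular calcium-binding proteins, SPARC relatives of basement membranes and mineralised tissue. Smoc2 (ENSMUSG00000023886; chromosome 17, 14279506 to 14404790, plus strand) measured 56.9, 84.3 and 94.7 CPM in the controls and 35.2, 67.2, 52.3 and 55.7 CPM after TBI. The groups overlapped only through control 1, which lay below TBI 2. Its means were 78.6 ± 19.5 CPM (SD, n = 3) and 52.6 ± 13.3 CPM (SD, n = 4), a log2 difference of −0.58 ± 0.24 (SE; edgeR adjusted p = 0.664). Smoc1 (ENSMUSG00000021136; chromosome 12, 81026808 to 81186414, plus strand) was the least abundant of the 9, with 242 to 440 counts per library. It measured 14.3, 16.1 and 22.1 CPM in the controls and 12.5, 18.7, 16 and 12.8 CPM after TBI, so that the groups were interleaved. Its log2 difference of −0.22 ± 0.21 (SE; edgeR adjusted p = 0.784) was smaller than that of Smoc2, and it came to −0.0187 without control 3, the highest library, and to −0.36 without TBI 2.

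Postn (ENSMUSG00000027750; chromosome 3, 54361109 to 54391037, plus strand) encodes periostin, which links collagen to other matrix proteins and binds integrins. Its level was 538, 910 and 622 CPM in the controls and 375, 376, 275 and 423 CPM in TBI 1 to 4. The control libraries were spread widely, with control 2 far above the others, yet the lowest of them was above all 4 TBI libraries. The mean was 690 ± 195 CPM in the controls (SD, n = 3) and 1.90-fold lower in the TBI group, at 362 ± 62.5 CPM (SD, n = 4). The log2 difference was −0.93 ± 0.22 (SE), with an adjusted p = 0.423 in edgeR and an adjusted p = 0.0273 in DESeq2. No gene reached a smaller adjusted p in edgeR, but genes with a smaller unadjusted p shared that value. Thbs3, for example, had an unadjusted p of 4.1e-05 in edgeR, against 0.0027 for Postn. Without control 2 the edgeR estimate for Postn was −0.68.

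Tenascin-C, tenascin-W and tenascin-X are large multimeric glycoproteins of connective tissue, encoded by Tnc, Tnn and Tnxb. Tenascin-W is found at bone surfaces, in periosteum and in the stroma of some tumours, and Tnn (ENSMUSG00000026725; chromosome 1, 160085029 to 160153580, minus strand) separated the groups. It measured 123, 219 and 160 CPM in the controls and 102, 101, 63.4 and 93.6 CPM in TBI 1 to 4. Control 2 was again the highest and TBI 3 the lowest, as for Postn. The means were 167 ± 48.5 CPM (SD, n = 3) and 90.0 ± 18.1 CPM (SD, n = 4), a 1.86-fold lower level and a log2 difference of −0.89 ± 0.23 (SE). The adjusted p = 0.443 in edgeR and the adjusted p = 0.0673 in DESeq2 both missed the threshold.

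Tnc (ENSMUSG00000028364; chromosome 4, 63959785 to 64047015, minus strand) encodes tenascin-C, which appears in developing and injured tissue and counteracts adhesion to fibronectin. It measured 593, 692 and 407 CPM in the controls and 476, 339, 329 and 289 CPM in TBI 1 to 4. Only 1 pair of libraries was out of order, TBI 1 lying above control 3. The means were 564 ± 145 CPM (SD, n = 3) and 358 ± 81.5 CPM (SD, n = 4), and the log2 difference was −0.65 ± 0.23 (SE; edgeR adjusted p = 0.609). An antisense non-coding gene, 8030451A03Rik, shares 176 exonic bases with Tnc but had no more than 5 counts in any library.

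Tnxb (ENSMUSG00000033327; chromosome 17, 34670535 to 34719815, plus strand) encodes tenascin-X, which associates with collagen fibrils in skin, tendon and muscle sheaths. Its level was 106, 124 and 160 CPM in the controls and 64.8, 103, 118 and 103 CPM after TBI. TBI 3 lay above control 1, and the other TBI libraries lay below all controls. The means were 130 ± 27.4 CPM (SD, n = 3) and 97.4 ± 22.8 CPM (SD, n = 4), with a log2 difference of −0.42 ± 0.22 (SE; edgeR adjusted p = 0.726). That estimate was −0.24 without control 3 and −0.27 without TBI 1. Tnxb shares 3 exonic bases with a pseudogene on the other strand, Cyp21a2-ps, which had at most 5 counts in any library.

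Fn1 (ENSMUSG00000026193; chromosome 1, 71585520 to 71653200, minus strand) encodes fibronectin, a multidomain adhesion protein on which cells assemble collagen. It was the steadiest of the 9 in the controls, at 1891, 1894 and 2041 CPM, a coefficient of variation of 4.41%. After TBI it measured 1158, 1482, 1736 and 1140 CPM, with a coefficient of variation of 20.7%. All 4 values were below the lowest control, TBI 3 by the smallest margin. The means were 1942 ± 85.7 CPM (SD, n = 3) and 1379 ± 285 CPM (SD, n = 4), a log2 difference of −0.49 ± 0.20 (SE; edgeR adjusted p = 0.664). Fn1 shares 292 exonic bases with the opposite-strand gene Apol7d, which had 1 to 4 counts per library.

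**Figure D2:**
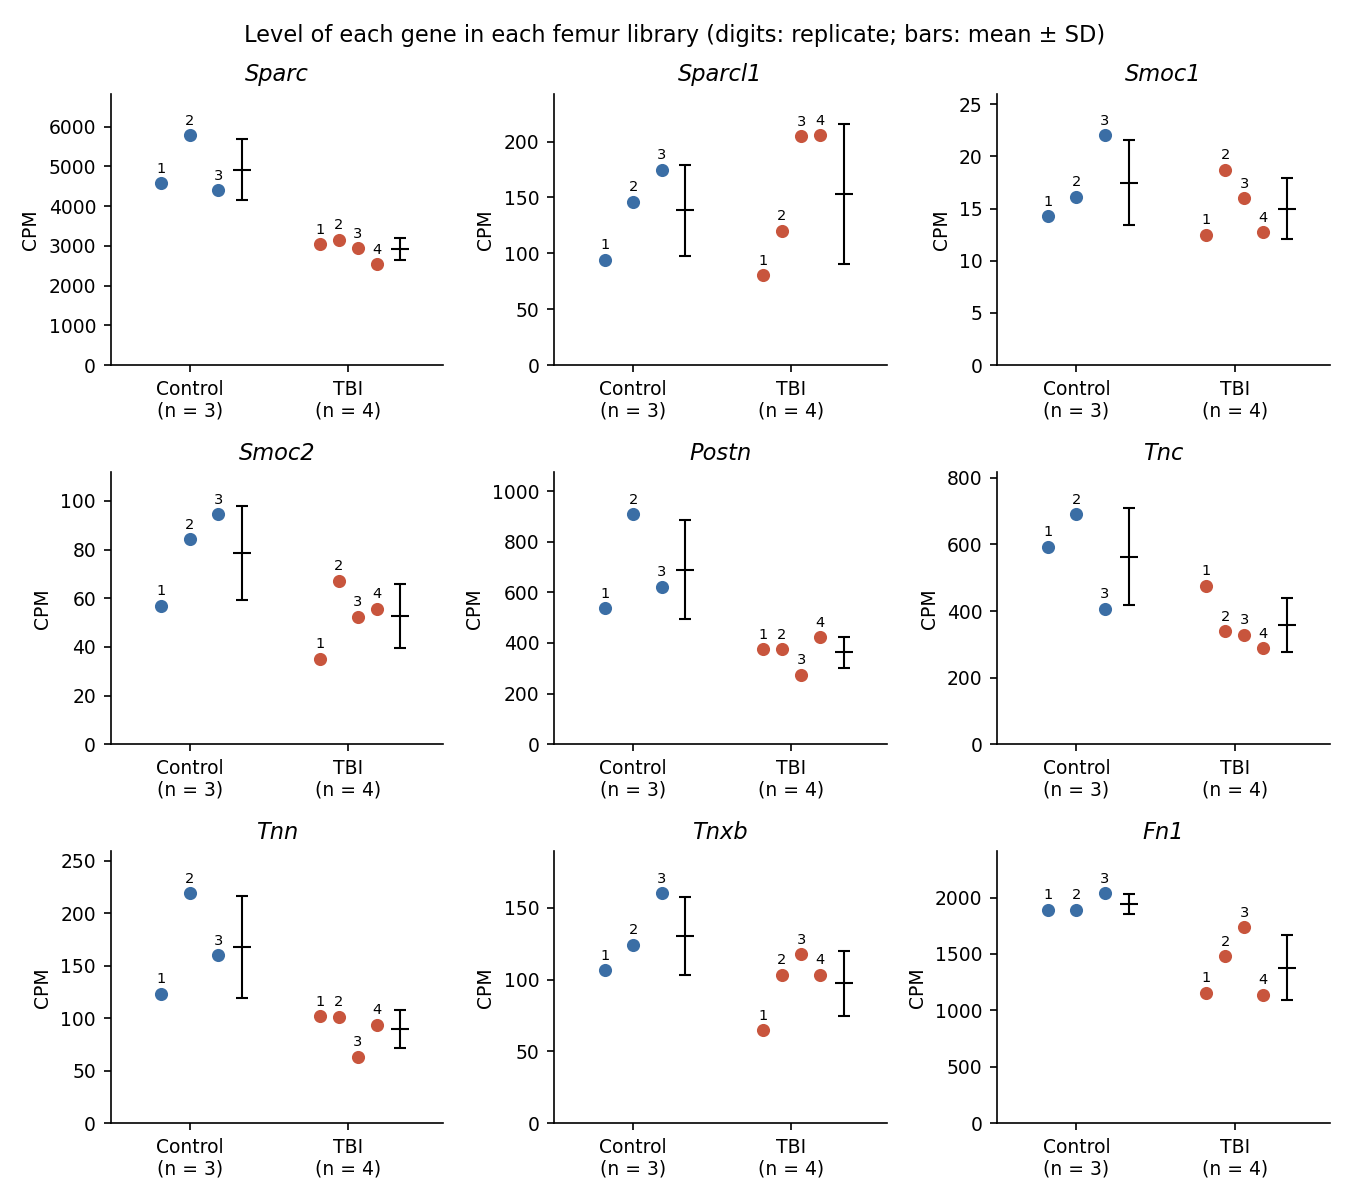
Level of each gene in TMM-scaled CPM (linear axes from 0) in the 3 control (blue) and 4 TBI (red) libraries, 1 numbered point per library, with the mean ± SD of each group beside the points. The groups do not overlap for Sparc, Postn, Tnn and Fn1, and for Sparcl1 TBI 3 and TBI 4 stand above all controls.

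To compare genes with each other, CPM were divided by the annotated exon length in kilobases, with all exons of a gene merged. Merged exons can be longer than the transcript that was expressed, to a degree that varies by gene. The order below holds for this divisor only, and transcript lengths were not used. Sparc led at 1299 ± 200 CPM per kb in the controls and 771 ± 70.1 after TBI (SD, n = 3 and 4). Fn1 came second, at 166 ± 7.34 and 118 ± 24.4 CPM per kb. In the controls Postn (79.3 ± 22.4 CPM per kb) and Tnc (72.5 ± 18.6) overlapped, as did Tnc and Sparcl1 (47.1 ± 13.9), and Sparcl1 and Tnn (28.8 ± 8.34). Smoc2 (11.3 ± 2.81 CPM per kb) and Tnxb (10.7 ± 2.25) also could not be ordered beyond their spread, and Smoc1 was lowest at 5.001 ± 1.163. After TBI the means of Sparcl1 (52.1 ± 21.3 CPM per kb), Tnc (46.1 ± 10.5) and Postn (41.6 ± 7.18) were close together, below Fn1 and above Tnn (15.5 ± 3.11). Tnxb (7.98 ± 1.86 CPM per kb), Smoc2 (7.57 ± 1.91) and Smoc1 (4.29 ± 0.845) again closed the order.

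**Figure D3:**
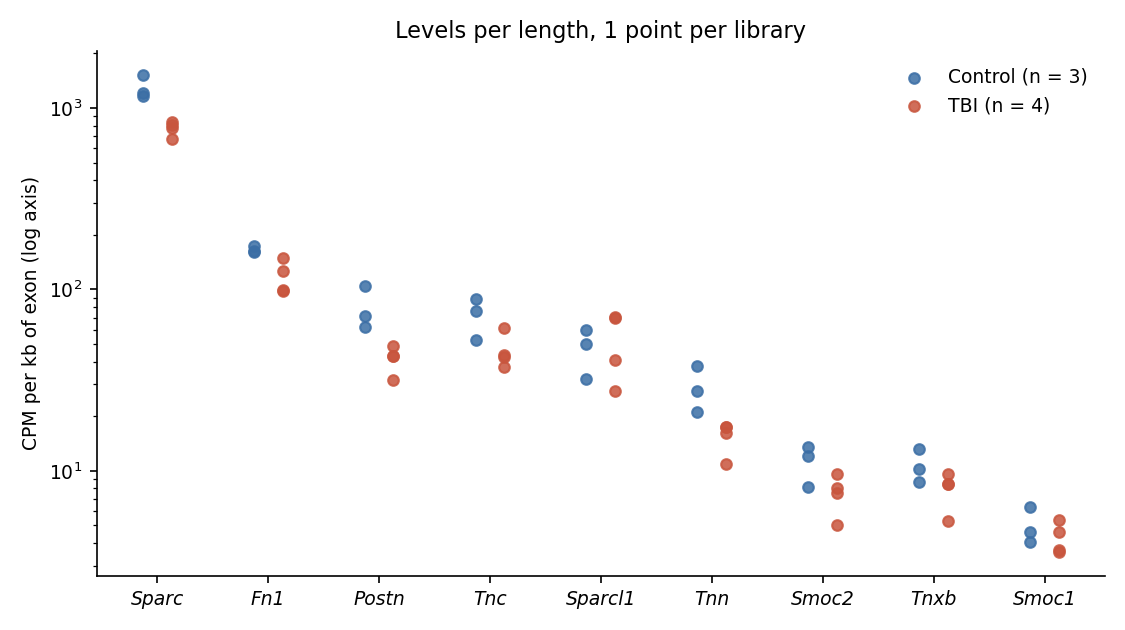
Level of each gene in CPM per kb of merged exon (log axis), 1 point per library for the 3 controls (blue) and 4 TBI libraries (red). On this scale, which depends on the merged exon length, Sparc and Fn1 stand clear of the others in both groups, and Smoc1 is lowest.

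All 9 genes together took 0.857%, 1.01% and 0.797% of the counts in controls 1 to 3. In TBI 1 to 4 they took 0.576%, 0.623%, 0.517% and 0.424%. The group means were 0.889 ± 0.112% (SD, n = 3) and 0.535 ± 0.0859% (SD, n = 4), and every TBI library was below every control. These shares are of total counts, without the TMM factors, which were 0.90 in TBI 3 and 0.87 in TBI 4. Abundant RNA of other tissues, such as muscle in those libraries, therefore lowers them, and its part in the difference was not tested. Sparc alone made up 56.8 ± 2.15% of these counts in the controls and 53.8 ± 2.53% after TBI, so the sum follows Sparc.

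Each gene's log2 level in the 7 libraries was then centred on its mean, and genes were compared by the root mean square (RMS) difference of these profiles, where 0 means an identical profile. This is a description over 7 libraries that share the contrast. Sparc, Tnc, Postn and Tnn were highest in control 2, and Fn1, Smoc1, Smoc2 and Tnxb were highest in control 3. Smoc1, Smoc2, Tnxb and Sparcl1 were lowest in TBI 1, Postn and Tnn in TBI 3, and Sparc, Tnc and Fn1 in TBI 4. Postn and Tnn were the closest pair of the 9, at an RMS difference of 0.111, and Sparcl1 and Tnc the farthest, at 0.817. For scale, Postn and Tnn deviated from their own means by 0.526 and 0.533 (RMS). The next nearest pairs were Smoc2 with Tnxb at 0.189 and Sparc with Tnc at 0.219. Others followed without a gap, such as Tnxb with Fn1 at 0.231, Smoc1 with Tnxb at 0.233 and Smoc1 with Fn1 at 0.238.

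Among 13494 protein-coding genes, the profile nearest to Postn was that of Col12a1 (RMS difference 0.0879), a fibril-associated collagen, followed by Fat3 (0.140) and Shank1 (0.143). Tnn shared 2 of these neighbours, Shank1 (0.121) and Col12a1 (0.138), behind Thbs2 (0.120), which encodes the matricellular protein thrombospondin 2. Tnc had a different set: Slc9b2 (0.0325), Ctsk (0.0613) and Acp5 (0.0757), of which Ctsk and Acp5 encode the osteoclast enzymes cathepsin K and tartrate-resistant acid phosphatase. Nearest to Sparc were Plxnb1 (0.0398), Bicc1 (0.0428) and Serpinf1 (0.0657), the last encoding the secreted bone protein PEDF. The neighbours of Fn1 were Cdr2l (0.0608), Dab2 (0.0983) and Nab2 (0.0989).

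Sparcl1 had Phlda3 (0.0631), Gaa (0.0637) and Podxl2 (0.0762) as its nearest profiles. Smoc2 was closest to Hhipl1 (0.106), Mxra7 (0.107) and Adamts6 (0.114). Tnxb was closest to Igfbp6 (0.0820), Lysmd2 (0.0987) and Tigd4 (0.0997), and Smoc1 to 1700029J07Rik (0.0909), Ttc9 (0.0932) and Gas8 (0.0959). Col12a1 itself was lower after TBI by an estimate of −0.77 ± 0.22 on the log2 scale (SE), Slc9b2 by −0.66 ± 0.22 and Plxnb1 by −0.74 ± 0.15, none of them past the edgeR threshold. These lower estimates are no separate finding, because the genes were chosen for profiles that hold the same contrast.

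**Figure D4:**
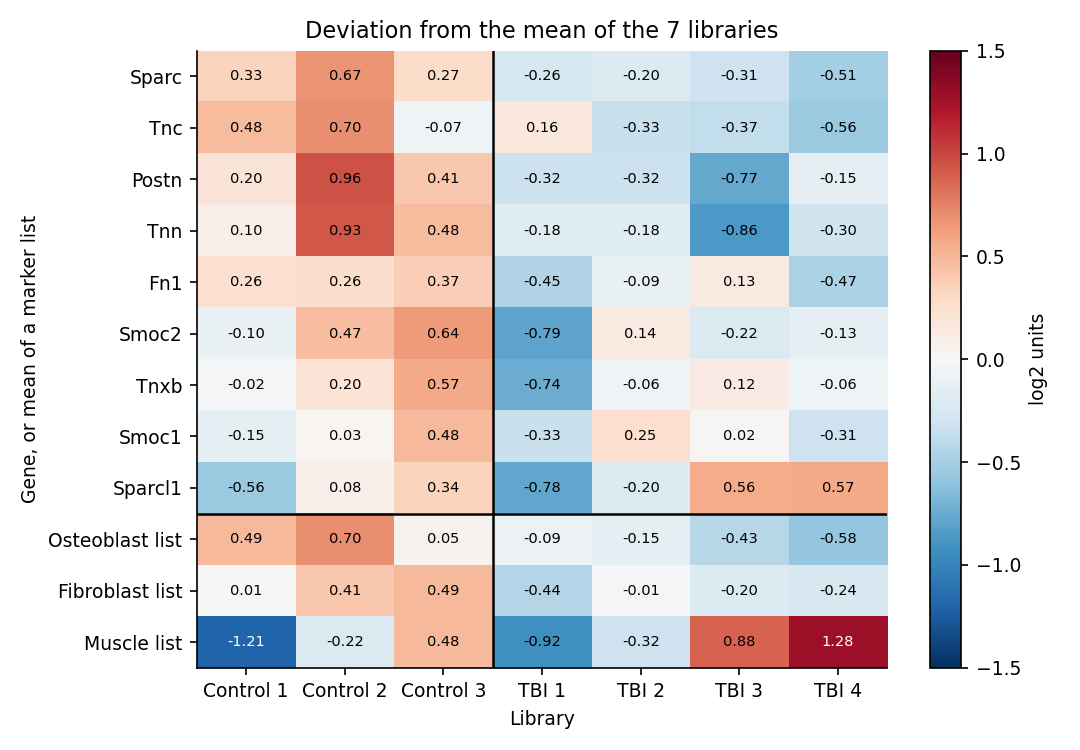
Log2 CPM of each gene in each of the 7 libraries, as the difference from that gene's mean over the libraries (colour and printed value, log2 units), with the mean of 3 marker lists in the bottom rows. Postn and Tnn follow each other closely (RMS difference 0.111), and Sparcl1 and Tnc are the farthest apart (0.817).

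Whether the genes of a pair differed in response was tested on the log2 ratio of the 2 genes within each library. The test was a two-sided exact permutation over 3 control and 4 TBI libraries. This design cannot give a p below 0.0571, and p-values were adjusted over 5 pairs. The ratio of Sparc to Sparcl1 was 5.19 ± 0.49 in the controls and 4.36 ± 0.75 after TBI (log2, SD), a difference of −0.83 ± 0.47 (SE; exact p = 0.171, adjusted 0.429). The ratio of Smoc1 to Smoc2 differed by 0.37 ± 0.18 (SE; exact p = 0.171, adjusted 0.429), from −2.16 ± 0.20 to −1.79 ± 0.27. Postn to Fn1, the only pair not from the same family, differed by −0.40 ± 0.36 (SE; exact p = 0.400, adjusted 0.571). Tnc to Tnn differed by 0.23 ± 0.33 (SE; exact p = 0.457, adjusted 0.571) and Tnc to Tnxb by −0.21 ± 0.50 (SE; exact p = 0.743). Single libraries moved these differences: with each library left out in turn, Sparc to Sparcl1 ran from −1.125 (without TBI 1) to −0.59 (without TBI 4) and Smoc1 to Smoc2 from 0.26 (without control 2) to 0.48 (without TBI 4). Postn to Fn1 ran from −0.56 (without TBI 4) to −0.15 (without TBI 3) and was −0.16 without control 2. Tnc to Tnn ran from 0.0294 (without control 3) to 0.49 (without control 1). Leaving out TBI 1, TBI 3 or TBI 4 gave 0.16, 0.11 or 0.36 for that pair. Tnc to Tnxb ran from −0.59 (without control 3) to −0.0222 (without control 1), and was −0.0226 without control 2, −0.54 without TBI 1 and −0.0755 or −0.0756 without TBI 3 or TBI 4. No pair was shown to differ in its response, and the errors leave room for differences of the size of the estimates.

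Of 29 other matricellular and SPARC-related genes, such as thrombospondins, CCN proteins and follistatin-like proteins, 27 were tested, all but Spock3 and Tnr. In this list 24 genes had a lower estimate and 3 a higher one, with a median of −0.46. At an unadjusted p under 0.05, 14 were lower and 0 higher, and for 10 all TBI libraries lay below all controls. Over all genes, 4.97% were lower at that level and 5.38% were separated in this direction. This list and those that follow were chosen with earlier results of these data known. Among the relatives, the smallest p-values belonged to Thbs3, Fstl1, Ccn4 and Nid2. Thbs3, a thrombospondin of growing skeleton, measured 53.3 ± 5.15 CPM in the controls and 30.6 ± 0.757 CPM after TBI, a log2 difference of −0.80 ± 0.10 (SE). Ccn4, a WNT-responsive matricellular gene of osteoblasts, measured 80.6 ± 21.6 and 46.2 ± 4.59 CPM (−0.80 ± 0.18). Fstl1, a secreted SPARC relative, differed by −0.46 ± 0.10 and Nid2, a basement membrane linker, by −0.56 ± 0.14.

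The genes that these proteins bind to in the matrix, or that process it, were also lower by estimate. Of 26 genes for collagens, proteoglycans, fibrillin, a collagen chaperone, crosslinking enzymes and proteases, 25 had a lower estimate, and the median was −0.57. At an unadjusted p under 0.05, 21 were lower, against 4.97% of all genes. The groups were separated for 19, against 5.38% of all genes. Mmp2, a gelatinase, measured 320 ± 61.7 CPM in the controls and 177 ± 20.2 CPM after TBI (log2 difference −0.86 ± 0.17, SE). Col5a2, a fibril-nucleating collagen chain, measured 595 ± 129 and 355 ± 20.8 CPM (−0.75 ± 0.17). The collagen crosslinking enzyme gene Loxl2 differed by −0.80 ± 0.16 and Fap, a fibroblast surface protease, by −0.58 ± 0.13.

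Receptors and uptake proteins were mixed. Of 24 genes 14 were lower and 10 higher by estimate, with a median of −0.12. At an unadjusted p under 0.05, 7 were lower, against 4.97% of all genes. Those with the smallest p-values were Ptprz1, a tenascin-binding phosphatase (20.6 ± 3.34 to 11.4 ± 1.23 CPM, log2 difference −0.86 ± 0.16, SE), and Itga11, a collagen-binding integrin chain (41.2 ± 9.53 to 26.04 ± 2.902 CPM, −0.66 ± 0.17). The collagen uptake receptor gene Mrc2 differed by −0.54 ± 0.14 and the heparan sulphate proteoglycan gene Sdc4 by −0.38 ± 0.11.

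Of 29 upstream factors (TGF-beta and BMP signalling, the cytokine gene Ccl2 and interleukin receptor genes, the actin- and YAP-dependent regulators, and mesenchymal, bone and immediate early transcription factor genes), 18 were lower and 11 higher, with a median of −0.12. At an unadjusted p under 0.05, 5 were lower, against 4.97% of all genes, and 2 higher. Over all 17144 genes, 1259 passed that level in either direction, of which 852 were lower. The osteoblast transcription factor gene Sp7 measured 82.9 ± 21.3 CPM in the controls and 47.9 ± 2.99 CPM after TBI (log2 difference −0.79 ± 0.17, SE), and Twist1, a mesenchymal transcription factor gene, 12.8 ± 0.902 and 7.67 ± 1.33 CPM (−0.74 ± 0.17). The receptor gene Tgfbr2 differed by −0.35 ± 0.11. Srf, the actin-responsive transcription factor gene, had the opposite sign at 54.8 ± 2.47 and 72.4 ± 10.8 CPM (0.40 ± 0.13), with every TBI library above every control. In all 4 lists 0 genes passed the edgeR test after adjustment. DESeq2 called 3 relatives, 7 matrix partners, 1 receptor and 2 upstream factors lower. Over all genes it called 0.7% of the 13281 given an adjusted p lower. Some listed genes, such as Ccl2 and Tll1, were given none.

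**Figure D5:**
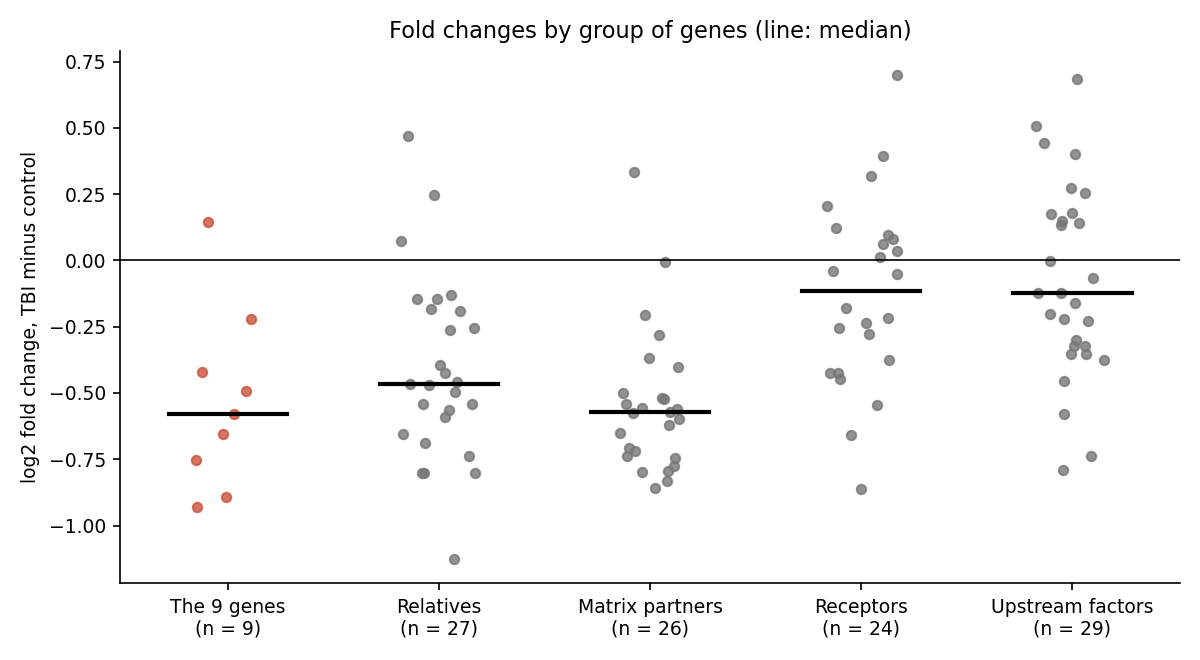
Log2 fold change, TBI minus control, of each tested gene in the 9-gene set and the 4 related lists, 1 point per gene, with the median of each. The matrix partners (median −0.57) and the 9 genes (−0.58) lie lowest, and the receptors and upstream factors are centred near −0.12.

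Marker genes of bone, fibrous tissue and cartilage, tissues known to make these proteins, were lower too. In part this repeats the lists above, which also hold such genes as Col1a1, Col3a1, Comp, Sp7 and Ctsk. Ctsk, which encodes an osteoclast enzyme, was counted among the fibroblast markers. Of 18 osteoblast markers 18 had a lower estimate (median −0.74), of 18 periosteum, tendon and fibroblast markers 17 (−0.67), and of 14 chondrocyte markers 14 (−0.75). The summed fibroblast markers ran from 5772 to 8436 CPM in the controls and from 3671 to 5773 CPM after TBI, and the chondrocyte markers from 4679 to 6023 and from 2965 to 3760 CPM. All 16 muscle markers and 14 of 15 neutrophil markers had a higher estimate (medians 0.75 and 0.97), the neutrophil sum running from 3820 to 5738 CPM in the controls and from 2703 to 13790 CPM after TBI. Lower estimates were not limited to those tissues: 12 of 12 B cell markers (median −0.75) and 10 of 11 erythroid markers (−0.32) had them too. The B cell sum ran from 178 to 299 CPM in the controls and from 66.6 to 213 CPM after TBI, and the erythroid sum from 45920 to 53130 and from 24390 to 34280 CPM. Of 14 marrow stroma and endothelium markers, 11 had a higher estimate (0.11), with sums of 1058 to 1268 and 1169 to 1374 CPM. No gene of these lists was at 0 counts in any library. With the mean osteoblast marker level as a covariate, the estimates were −0.36 ± 0.35 for Sparc and −0.64 ± 0.40 for Postn (SE). They were −0.49 ± 0.38 for Tnn and −0.59 ± 0.38 for Fn1, and that for Tnc changed sign, to 0.21 ± 0.27 (SE). This covariate itself separated the groups (mean log2 CPM 6.58 to 7.23 in the controls, 5.95 to 6.44 after TBI). The fit therefore could not tell the covariate from the group, and nothing was concluded from the changed estimates. In that fit 1 of the 9 genes, Tnxb at −1.003 ± 0.33, had an unadjusted p under 0.05 (edgeR adjusted p = 0.619), against 6.84% of all genes. With the muscle level as a covariate Sparc was −0.71 ± 0.12 (edgeR adjusted p = 0.0631), Tnxb −0.59 ± 0.13 (edgeR adjusted p = 0.0760) and Postn −0.94. In that fit 8 of the 9 genes had an unadjusted p under 0.05, against 16.2% of all genes, and with the erythroid level as a covariate 6 did, against 14.9%. The erythroid level also separated the groups (mean log2 CPM 10.6 to 10.9 in the controls, 9.98 to 10.5 after TBI). The share of the lower levels that goes with the number of bone-forming cells was not tested.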

How the data were processed

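Total RNA from whole femurs was purified with Trizol and columns, and mRNA libraries were made with a stranded kit, per the labels' protocols. The authors deposited whole-number read counts per Ensembl gene for 3 control and 4 TBI libraries. The submitters' processing notes name STAR, DESeq and GRCm38 without versions. Sources used here do not give how reads were counted, or whether by strand. Values of overlapping genes are therefore uncertain. A deposited table of normalized values was not used.

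Symbols and coordinates came from GENCODE M21 on GRCm38 (49412 of 49671 identifiers, 99.5%). filterByExpr kept 17144 genes, which were scaled by TMM and fitted with edgeR 4.0.16 (glmQLFit, glmQLFTest, R 4.3.3) on all 7 libraries. p-values were adjusted by Benjamini-Hochberg over all genes, with a threshold of 0.05. DESeq2 1.42.0, limma-voom (3.58.1), other filters, covariates (the mean log2 CPM of a marker list), a replicate block and leaving out each library were alternatives. The edgeR and DESeq2 procedures were tested on simulated data. There DESeq2 recovered more of the changed genes than edgeR but also made more false calls, so genes called by DESeq2 alone are taken as less certain. The simulated counts used dispersions estimated by edgeR and let genes vary independently. They held no differences in tissue content between libraries, so the rate of false calls in the real data is not known from them.

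Replicates were not duplicates: chi-square per degree of freedom between libraries was 27.2 to 249. At these depths a count of 0 allows up to 0.128 to 0.189 CPM, for counting error only. Promoter sequences are not reported here. The genes and lists were chosen with earlier results of these data known. Named genes are all 9 members, the 4 smallest p-values of each list that is no marker list, and, per member, the 3 protein-coding genes of at least 1 CPM with the smallest RMS difference.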

Additional observations from a re-analysis of the deposited data

Results flagged for a closer look

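The log2 ratio of Tnc to Tnxb in TBI 1 was 2.88, apart from the other TBI libraries, which had 1.71, 1.48 and 1.48. Its gap to the nearest of them was 0.834 of the range of the 4 values, above Dixon's 95% critical value for 4 values. Such a gap was looked for in 14 groups of 4 values, and chance gives it in about 5% of groups.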

How the results depend on the processing

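Of 171 fold changes of single genes under 19 alternatives each, 161 kept their direction and 10 took the opposite one. Of those, 9 belonged to Sparcl1: −0.0883 with voom quality weights, −0.0920 with the replicate block, −0.24, −0.86 and −0.94 with muscle, erythroid and osteoblast covariates, −0.49 on dropping both TBI 3 and TBI 4 (an alternative chosen once the data had been seen), and with 1 library left out a range of −0.0712 to 0.35 that was negative without control 1, TBI 3 (−0.0292) or TBI 4 (−0.0340). The other was Tnc, 0.21 with the osteoblast covariate, which, like the erythroid one, itself separated the groups. The cause of these changes was not tested. DESeq2 called 102 genes where edgeR called 0, and 2 of the 9 genes passed the threshold there alone. The median of the 9 genes was −0.86 with the erythroid covariate, and −0.64 to −0.43 with each library left out. The number of genes lower was 8 or 9 without any 1 library. Whether shared replicate numbers pair the libraries stayed undecided. The profiles of controls and TBI with the same number correlated at 0.549, −0.0277 and 0.322, against 0.393 for control 3 with TBI 4. The replicate block left 0 genes called (1909 against 1259 at an unadjusted p under 0.05). With 3 and 4 libraries and this spread, estimates carry SEs of 0.20 to 0.35, and the lowest count of any of the 9 genes was 242.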

Other observations

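Within the counts of the 9 genes, the share of Sparcl1 was 1.61 ± 0.506% over 3 controls and 2.85 ± 1.26% over 4 TBI libraries (SD). That of Fn1 was 22.7 ± 3.15% and 25.3 ± 3.72%. Postn had a mean share of 7.88% in the controls and 6.76% after TBI, and Tnc one of 6.49% and 6.62%. These shares sum to a fixed total and were not tested.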
